A study of Mus musculus with 8 samples.

Results

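Smooth muscle cells that lack Tgfbr2 were compared after 1 and 2 months of high fat diet (HFD) with cells of the same genotype on the diet labelled ND. The mice carried a knockout of Tgfbr2 in smooth muscle on an Apoe-deficient background (genotype TGFBetaRiSMC-Apoe, called KO here), so all 3 groups shared both losses and differ, as far as the labels say, in diet and time. GFP-positive cells were sorted from the digested ascending aorta and sequenced as single cells on the Chromium droplet system of 10x Genomics. The labels do not give what drives the deletion or the GFP, the age of the mice, or how many animals went into a library. The 3 libraries, called ND, 1M and 2M, are 3 of the 8 in the series and hold 4682 of its 13056 cells. Of 11221 genes in the table of the KO cells, 9037 had a value in all 3 libraries, and leaving out 204 pseudogenes left 8833. Another 41 genes had values at 1M and 2M but none in ND, 401 had one in ND and none at 1M and 2M, and both kinds were left out.

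TGF-beta is a secreted growth factor that binds the receptor TGFBR2, which recruits and activates TGFBR1. The pair then phosphorylates SMAD2 and SMAD3, which move to the nucleus and switch on matrix and contractile genes. Smooth muscle cells of the aorta use this pathway to keep their contractile state and to lay down elastic fibres. Apoe-deficient mice clear lipoproteins poorly and develop high plasma cholesterol on a high fat diet, and smooth muscle cells near a growing plaque can lose contractile proteins and take on fibroblast-like, cartilage-like or macrophage-like features.

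The ND, 1M and 2M libraries held 1127, 1302 and 2253 cells, 12337547, 11977077 and 18254302 unique molecular identifiers (UMIs), and a median of 10398, 8912.5 and 7631 UMIs per cell, so depth per cell was lower at each later time. A level (CPM) is a gene's UMIs per 1000000 UMIs in its library. Its 95% interval is an exact Poisson one and covers counting error only. A difference is that of log2(CPM + 1), at 1M or 2M minus ND, which understates changes of low genes. Each group had 1 library and both comparisons use the same ND library, so no difference between diets has a replicate check, and an unusual value in ND enters both. A gene is listed at 0 in a library where few cells carried it (lowest listed share 5.02% to 5.07% of cells), and no level is read from such a listing. Tgfbr2 and Apoe were removed from the table per the file name, so the knockout itself could not be checked. ND shared 0 cell barcodes with 1M and 3 with 2M, and 1M shared 8 with 2M.

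The labelled cell type was checked against its markers. All 8 smooth muscle markers were present in each library, with summed levels of 42780, 40291 and 36954 CPM at ND, 1M and 2M. Of 10 fibroblast markers, 5, 9 and 6 had a value (summed 774, 1436 and 4904 CPM), Dcn and Lum among them. Of 15 macrophage markers, 1, 7 and 1 had a value (6.32, 508 and 27.6 CPM), and Lyz2, C1qa, C1qb, C1qc and Cd14 had one at 1M alone. Of 8 cartilage markers, 2, 2 and 5 had a value (52.8, 53.0 and 1120 CPM), and Col2a1 and Chad had values at 2M alone. Of 10 endothelial markers 1, 1 and 2 had a value, and no lymphocyte or erythroid marker did. Of 7 Schwann cell markers, 2, 2 and 3 had a value (515, 482 and 420 CPM, most of it Ncam1), and S100b had one at 2M alone. The 1M library thus stood apart by its fibroblast and macrophage markers, and the 2M library by Dcn, Lum and cartilage genes.

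A share of the 1M cells carried several fibroblast markers. With Dcn and Lum set aside, 95 cells of 1M (7.30%) carried a UMI of at least 2 of the 5 markers Pdgfra, Dpt, Pi16, Serpinf1 and Cd34, against 35 cells of 2M (1.55%) and 0 cells of ND. Only 1 of these 5 markers had a value in ND and 2 had one at 2M, so the count could not be made on the same footing in each library. The 95 cells held Acta2 (smooth muscle actin) at 12270 CPM, against 24587 in the other cells of 1M. At 2M the 35 cells held it at 2490 CPM, against 21899 in the others. Separately, 26 cells of 1M (2.00%) carried at least 3 macrophage markers, but since only 1 of the 15 markers had a value in ND and in 2M, such cells could not be counted there. Results are given with all cells and, where it matters, without the fibroblast-marker cells. These cells had more UMIs than the others (median 10655 against 8753 at 1M), no doublet caller was run, and whether they hold 1 or 2 cells each was not tested.

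Few genes passed a difference of 1 at both times. At 1M 27 of 8833 genes were higher by at least 1 (0.306%) and 12 lower (0.136%). At 2M the numbers were 118 higher (1.34%) and 75 lower (0.849%). Together, 21 genes were higher at both times (0.238%) and 3 were lower at both (0.034%). At a size of 0.5 on the log2 scale, 143 genes were higher at both (1.62%) and 95 lower (1.08%). The plot of levels by library shows 23 of the 24 genes past 1. Of the 21 higher genes, 7 stayed past 1 at both times without the fibroblast-marker cells, while 21 of 21 stayed past 1 at 2M and 3 of the 3 lower genes stayed past -1 at both. Their median difference at 1M was 1.53 with all cells and 0.71 without those cells, and at 2M 1.54 and 1.49. At 1M the differences of 14 of the 21 thus lay under 1 once those cells were set aside, and at 2M, where fewer of the markers had a value, none did. With every cell thinned to 3000 UMIs, since depth per cell differed between the libraries, 21 genes were again higher at both times, 15 of them among these 21. Those that fell under 1 were Ccn5 (0.87), H2-Q4 (0.66), Fbln5 (0.98), Sfrp4 (0.66) and H2-T23 (0.95) at 1M and Aspn (0.95) at 2M. Genes named below that did not pass 1 at both times were chosen after their values were seen, other than the first 20 lower genes, 4 contractile genes and the 10 genes of the test against Apoe. Just inside the limit lay Sfrp1 (1.02 and 1.46 at 1M and 2M), H2-T23 and Mfap4, and just outside it Ctsk (0.97 and 1.999), Irgm1 (0.96 and 1.18) and Pcolce (0.95 and 1.92).

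**Figure D1:**
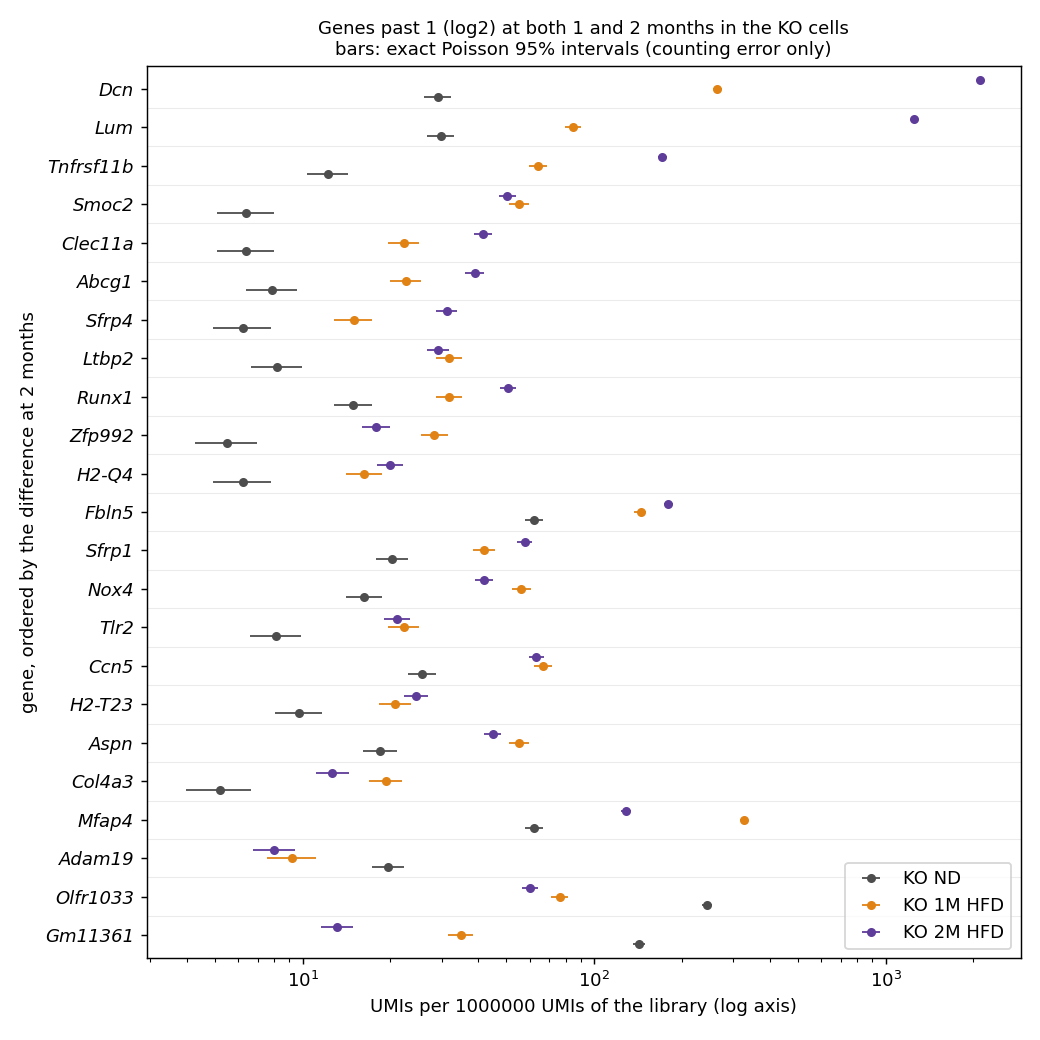
Levels of 23 of the 24 genes that differed from ND by at least 1 on the log2 scale, the same way, at both 1 and 2 months in the KO cells. The x axis is UMIs per 1000000 UMIs of the library (log axis), points are libraries (1 per group) and bars are exact Poisson 95% intervals. Dcn went from 29.1 CPM in ND to 2098 at 2M, and the 3 lowest rows are the lower genes.

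Among collagen-binding proteoglycans, Dcn and Lum had the largest differences of all 24 genes at 2M. Dcn (decorin, which binds collagen fibrils and TGF-beta; chromosome 10, 97479609 to 97518143, GRCm38) stood at 29.1, 265 and 2098 CPM at ND, 1M and 2M, differences of 3.14 and 6.12. Lum (lumican, which spaces collagen fibrils) stood at 29.7, 84.5 and 1253 CPM. Aspn (asporin, which binds TGF-beta) stood at 18.5, 55.3 and 44.8 CPM. The first 2 were far higher at 2M than at 1M and Aspn was not. The 95 fibroblast-marker cells held 87.8% of the Dcn UMIs and 83.5% of the Lum UMIs of 1M, while the 35 cells of 2M held 18.0% and 15.8%. Without these cells Dcn was at 35.8 and 1757 CPM at 1M and 2M (differences of 0.29 and 5.87), and Lum at 15.4 and 1078 (-0.91 and 5.13). Aspn was at 36.3 and 44.9 CPM without them (0.94 and 1.24). The other small leucine-rich proteoglycans differed less: Bgn stood at 2604, 2434 and 3758 CPM and Ogn at 472, 640 and 396. Of the 7 genes of this family measured, 3 were higher by at least 0.5 at both times and 0 lower, against 1.62% and 1.08% of all genes. Without the fibroblast-marker cells 1 was higher, against 1.26% of all genes.

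Elastic fibre genes split. Fbln5 (fibulin 5, which guides elastin assembly) stood at 62.4, 144 and 180 CPM and Mfap4 (a microfibril-associated protein) at 62.1, 327 and 128. Ltbp2 (a microfibril protein, by name of the latent TGF-beta binding protein family) stood at 8.19, 31.8 and 29.1. All 3 were higher at both times, Mfap4 most at 1M. The 95 cells held 65.1% of the Fbln5 UMIs and 68.2% of the Mfap4 UMIs of 1M. Without them Fbln5 was at 55.6 CPM at 1M, just under ND (difference -0.16), but still at 173 at 2M (1.45). Mfap4 was then at 115 and 128 CPM (0.87 and 1.04), and Ltbp2 at 11.1 and 23.1 (0.39 and 1.39). Elastin itself went the other way: Eln stood at 714, 574 and 368 CPM, differences of -0.32 and -0.96. Eln was at 195 CPM at 1M without the fibroblast-marker cells, a difference of -1.87 from an ND library in which no cell could be set aside, as 1 of the 5 markers had a value there. The same holds for every 1M value given without these cells. Mfap5, a microfibril protein, stood at 308, 243 and 164 CPM and was at 164 at 1M without them (-0.91). Of 15 genes of the elastic fibre list, 3 were higher by at least 0.5 at both times and 0 lower with all cells, against 1.62% and 1.08% of all genes. The list held 2 genes past 1 at both times, so not all of Fbln5, Mfap4 and Ltbp2 are on it. Without the fibroblast-marker cells 1 was higher and 3 were lower, against 1.26% and 1.13%. Mfap4 overlaps Mapk7 on the opposite strand, and the sources used here do not give whether counting used strand.

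Collagen genes had mixed directions. Of 16 collagen and processing genes, 6 were lower and 2 higher at both times, against 28.8% and 36.6% of all genes. By at least 0.5 at both, 2 were lower and 1 higher, against 1.08% and 1.62% of all genes. Without the fibroblast-marker cells 3 were lower and 0 higher by that size, against 1.13% and 1.26%. Col3a1 stood at 905, 620 and 405 CPM (-0.55 and -1.16), and at 444 at 1M without the 95 cells (-1.03). Col1a1 stood at 666, 512 and 412 CPM (-0.38 and -0.69), and at 367 at 1M without them (-0.86). Sparc, a collagen-binding glycoprotein, was at 1569, 1437 and 4421 CPM, and thus higher at 2M alone. Pcolce, which enhances the trimming of procollagen, was at 32.6, 63.7 and 126 CPM, with a 1M difference of -0.11 without the marker cells. The median of the 16 collagen and processing genes was -0.36 at 1M and 0.01 at 2M, against 0.016 and 0.030 over all genes.

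Secreted regulators made up another group of the higher genes. Smoc2, a matricellular protein, stood at 6.40, 55.2 and 50.4 CPM. Ccn5, of the CCN matricellular family, stood at 25.7, 67.0 and 63.3. Tnfrsf11b (osteoprotegerin, the decoy receptor for RANKL) stood at 12.2, 64.0 and 171 CPM, and Clec11a, a bone growth factor, at 6.40, 22.3 and 41.5. The Wnt antagonists Sfrp1 and Sfrp4 stood at 20.3, 42.0 and 57.7 CPM and at 6.24, 15.0 and 31.2. Each of these was above ND at both times, beyond counting error. Without the fibroblast-marker cells the 1M difference was 0.66 for Smoc2, 0.58 for Tnfrsf11b, 0.41 for Clec11a, -0.21 for Sfrp4 and -1.02 for Ccn5, but 1.02 for Sfrp1. The 2M differences without those cells ran from 1.15 (Ccn5) to 3.60 (Tnfrsf11b). Sfrp2, of the same Wnt antagonist family, was lower, at 68.4, 39.2 and 38.3 CPM. Of the matricellular list, Ccn2 (a TGF-beta and YAP target) stood at 676, 546 and 217 CPM and Mgp, an inhibitor of calcification, at 1696, 2149 and 4994. Col4a3, a collagen IV chain, was at 5.19, 19.3 and 12.7 CPM, with differences of 1.71 and 1.14, and 0.71 at 1M without the marker cells.

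**Figure D2:**
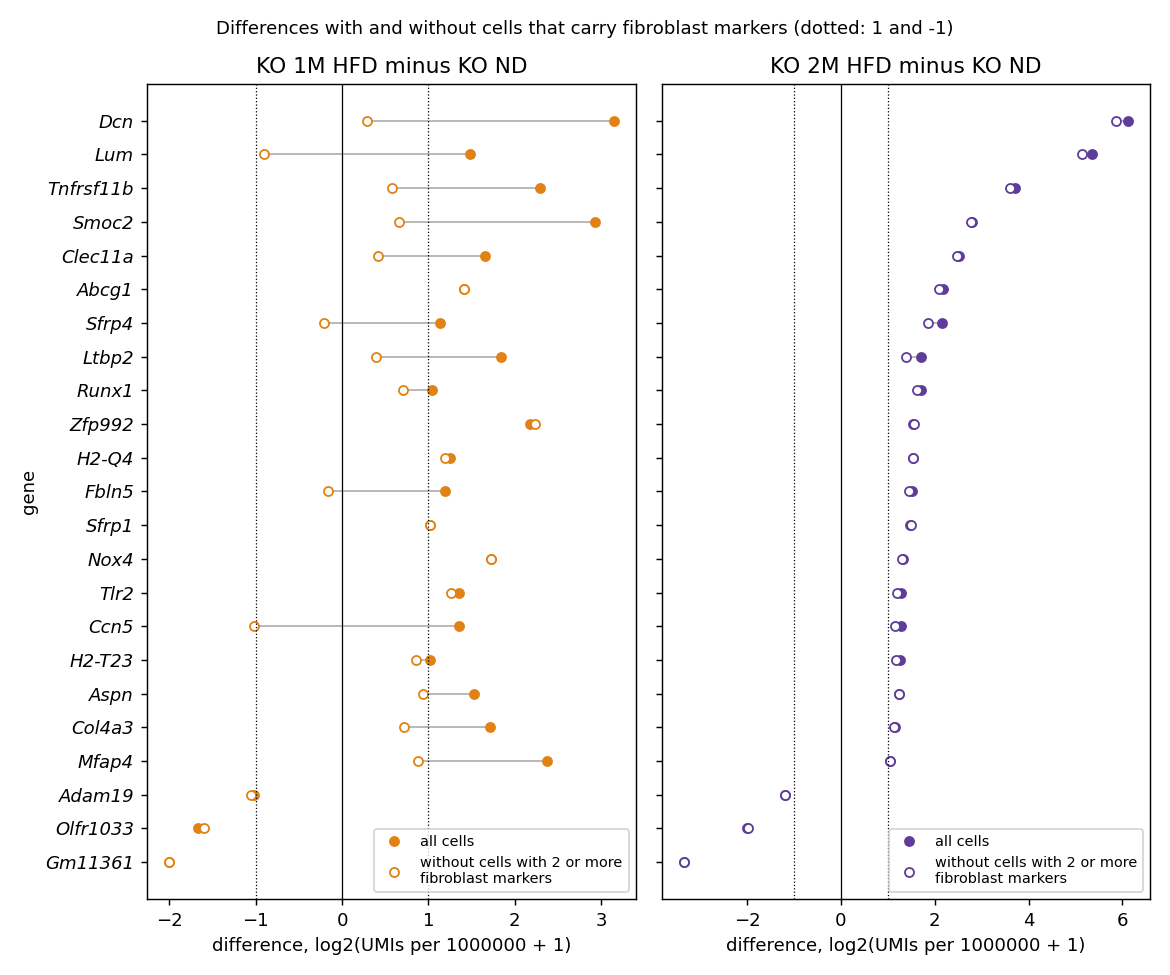
Differences from ND at 1M (left) and 2M (right) for 23 of the 24 genes, with all cells (filled) and without cells that carried at least 2 fibroblast markers (open), on the log2(UMIs per 1000000 + 1) scale. At 1M Dcn drops from 3.14 to 0.29 and Lum, Ccn5, Fbln5 and Sfrp4 go below 0, whereas Nox4, Abcg1, Sfrp1, H2-Q4 and Zfp992 hardly move. At 2M all 23 keep their side of the dotted lines.

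A smaller group was higher in the remaining cells at both times. Nox4, an NADPH oxidase that makes hydrogen peroxide and is a known TGF-beta target, stood at 16.3, 56.3 and 42.0 CPM (intervals 14.1 to 18.7, 52.1 to 60.7 and 39.1 to 45.1). Its differences of 1.73 and 1.31 were 1.73 and 1.30 without the fibroblast-marker cells, and its level was 57.3 CPM within the 95 cells and 56.2 outside them. Abcg1, which exports cholesterol to high density lipoprotein, stood at 7.86, 22.6 and 38.9 CPM, differences of 1.41 and 2.17, and of 1.41 and 2.09 without those cells. For both the ND interval lay below both HFD intervals. Runx1, a transcription factor, stood at 14.9, 31.7 and 50.7 CPM (1.04 and 1.70), with 0.71 at 1M without those cells. Zfp992 stood at 5.51, 28.3 and 17.9 CPM. It belongs to a family of near-identical zinc finger genes that can share reads, so its values are uncertain.

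Tlr2, an innate receptor for bacterial lipoproteins, stood at 8.11, 22.3 and 21.1 CPM (1.36 and 1.28). Without the 26 macrophage-marker cells its 1M level was 8.05 CPM, a difference of -0.0085. At 2M, where 1 macrophage marker had a value, no such cells could be set aside, and the part of macrophage RNA in the 2M level was not tested. Cells with at least 3 markers of another type (other-type cells) were these 26 at 1M and 13 cells of 2M (0.58%) with Schwann cell markers. Only 2 of the 7 Schwann cell markers had a value in ND and at 1M, so such cells could not be counted there. Without the fibroblast-marker and other-type cells, 6 of the 21 higher genes stayed past 1 at both times, Abcg1, Nox4, Sfrp1, H2-Q4 and Zfp992 among them. With all cells and 10 in place of 1 added to the CPM, several fell under 1. Nox4 was then at 0.98 at 2M, Abcg1 at 0.87 at 1M, Zfp992 at 0.85 at 2M and H2-Q4 at 0.69 and 0.89. With cells thinned to 3000 UMIs H2-Q4 was at 0.66 at 1M, while Abcg1, Nox4, Sfrp1 and Zfp992 stayed past 1 at both times.

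Only 3 genes were lower by at least 1 at both times. Adam19, a membrane metalloprotease, stood at 19.7, 9.18 and 7.998 CPM (-1.02 and -1.20). Olfr1033, annotated as an olfactory receptor, stood at 244, 76.1 and 60.3 CPM (-1.67 and -1.999), and the predicted gene Gm11361 at 143, 34.9 and 13.2 (-2.002 and -3.35). Both of the latter were also unequal among libraries of the Apoe genotype described below, where Gm11361 stood at 30.5, 77.5 and 14.3 CPM and Olfr1033 at 133, 115 and 49.6. The genes next in rank included Pxdn (peroxidasin, which crosslinks collagen IV) at 37.6, 18.4 and 16.9 CPM, S100a4 at 362, 183 and 175, Timp4 (a metalloproteinase inhibitor) at 21.6, 9.35 and 10.6 and Pi15 (a peptidase inhibitor) at 212, 110 and 109. Itgb3 (integrin beta 3) was at 35.5, 19.4 and 17.8 CPM, Pparg (a nuclear receptor of lipid metabolism) at 24.1, 8.35 and 13.2, Acaca (acetyl-CoA carboxylase, of fatty acid synthesis) at 18.2, 9.85 and 10.2 and P2rx1 (an ATP-gated channel of smooth muscle) at 32.2, 17.2 and 18.8. Also among the first 20 were Slc25a34, Hmga1, Casq1, Lars2 and Tubb4a, with differences from -1.21 to -0.77 at 1M and from -1.71 to -0.77 at 2M. When the fibroblast-marker cells were set aside, 7 genes were past -1 at both times, the 3 above, S100a4 and Timp4 among them. Hmga1, Pi15 and Sfrp2 overlap genes of the table on the opposite strand.

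Sterol synthesis genes were lower. Of 16 measured genes of the cholesterol list, 12 were lower and 1 higher at both times, against 28.8% lower and 36.6% higher over all genes, and 6 were lower by at least 0.5 at both, against 1.08%. Sqle (squalene epoxidase) stood at 48.2, 24.4 and 22.8 CPM, Hmgcs1 (HMG-CoA synthase) at 123, 81.2 and 62.7, Msmo1 at 75.0, 39.3 and 47.9, Fdft1 (squalene synthase) at 32.4, 17.9 and 22.2 and Cyp51 at 23.9, 13.8 and 11.4. In these 5 the ND level was the highest of the 3. Srebf2, whose product SREBP2 switches these genes on when cell cholesterol is low, stood at 33.2, 25.6 and 15.9 CPM, and its target Insig1 at 107, 102 and 53.5, so these were lower mainly at 2M. Ebp was higher by 0.09 and 0.31. The list's medians were -0.44 and -0.58, and -0.41 and -0.57 without the fibroblast-marker cells, where again 6 were lower by at least 0.5 at both, against 1.13% of all genes. In the Apoe cells described below the medians were -0.20 and -0.25. Cyp51 overlaps Akap9 on the opposite strand.

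Besides Abcg1, Abca1 (export to apolipoprotein A1) stood at 21.0, 34.1 and 33.9 CPM, differences of 0.67 and 0.67. Nr1h3, which encodes the oxysterol receptor LXR alpha that induces both, stood at 5.27, 6.43 and 8.44 CPM (0.25 and 0.59). Scd2, a fatty acid desaturase, was lower, at 68.2, 38.7 and 43.6 CPM. Lgals3 (galectin 3) stood at 128, 216 and 599 CPM, higher at both times and most at 2M, and at 0.76 and 2.14 without the marker cells. Of 23 lipid handling genes measured, 3 were higher and 2 lower by at least 0.5 at both times, against 1.62% and 1.08% of all genes.

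Interferon-induced genes were higher, more at 2M than at 1M. Of 33 measured, 26 were higher and 0 lower at both times, against 36.6% higher and 28.8% lower over all genes, and 11 were higher by at least 0.5 at both, against 1.62% of all genes. The list's medians were 0.36 and 0.74, and the count of 11 was the same without the fibroblast-marker cells, where 1.26% of all genes passed. Class I antigen presentation genes were among them: H2-Q4 stood at 6.24, 16.3 and 19.995 CPM, H2-T23 at 9.73, 20.7 and 24.5, H2-D1 at 206, 333 and 460 and H2-K1 at 98.97, 163 and 178. Psmb8, a subunit of the immunoproteasome that cuts peptides for class I, stood at 5.51, 10.3 and 23.7 CPM. B2m, the class I light chain, stood at 1225, 1570 and 1642. The regulators Irf1 and Irf7 stood at 45.0, 96.6 and 77.7 CPM and at 5.51, 9.60 and 19.9, so Irf1 was highest at 1M and Irf7 at 2M. Isg15, a ubiquitin-like protein, stood at 27.1, 41.8 and 106 CPM, and the GTPases Irgm1 and Gbp7 at 8.75, 18.0 and 21.1 and at 7.38, 10.9 and 18.5. Ifi27l2a differed by 0.30 and -0.36. H2-Q4 and H2-T23 belong to a family of similar genes that can share reads, so their values are uncertain. Without the fibroblast-marker and macrophage-marker cells their 1M differences were 1.05 and 0.66.

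Interferon acts on such genes through the interferon-stimulated response element, and SREBP2 on sterol genes through the sterol regulatory element, so promoters of both lists were searched for them. In RefSeq promoters (GRCm38.p6, the 250 bases before each start, both strands), the letters GAAANNGAAA were found in 10 of the 27 interferon list genes with a promoter there (37.0%), against 3.46% of 27025 genes. The sterol letters TCACNCCAC were found in 1 of 11 sterol genes (9.09%), against 1.22%. A gene with several or overlapping matches counts once, and a match is a description of the sequence only. Windows were taken from promoters with the motif whose genes were past 0.5 at both times, 4 of the interferon list and 1 of the sterol list. Those over an exon annotated in GENCODE vM21 (Irgm1 and H2-T23) were dropped. The 3 left are shown 5′ to 3′ on the strand of the gene. Capitals mark the motif, in Isg15 the first of 3 overlapping matches, and in Gbp7 a match on the other strand.
Isg15: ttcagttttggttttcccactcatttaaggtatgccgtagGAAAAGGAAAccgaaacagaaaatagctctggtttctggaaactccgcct
Gbp7: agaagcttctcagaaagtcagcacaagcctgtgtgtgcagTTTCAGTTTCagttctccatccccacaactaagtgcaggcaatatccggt
Hmgcs1: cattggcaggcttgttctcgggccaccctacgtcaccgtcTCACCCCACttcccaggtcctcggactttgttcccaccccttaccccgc
These windows are chr4:156200847-156200936 (minus strand), chr3:142530243-142530332 (plus strand) and chr13:119690174-119690262 (plus strand). They lie upstream of the start and, by the choice above, overlap no annotated exon. The motif begins 78 bases before the start in Isg15, 53 in Gbp7 and 137 in Hmgcs1.

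Basement membrane genes were lower. All 12 measured genes of the list were lower at both times, against 28.8% of all genes, and 5 of them by at least 0.5 at both, against 1.08%. The medians were -0.54 and -0.70. Col4a3, described above and not on the list, was higher. Col18a1, the source of endostatin, stood at 1002, 680 and 621 CPM, Col15a1 at 179, 106 and 108, Col4a1 at 273, 195 and 126 and Col4a2 at 188, 117 and 113. The laminin chains Lama5 and Lamc1 stood at 76.0, 44.9 and 42.0 CPM and at 97.9, 59.2 and 49.7. Hspg2 (perlecan) differed by -0.52 and -0.40 and Lamb2 by -0.15 and -0.46. The medians were -0.60 and -0.69 without the fibroblast-marker cells. In the Apoe cells described below, the same 12 genes had medians of -0.08 and -0.05. Those of the interferon list in Apoe, over the 23 of its genes measured there, were 0.08 and 0.11.

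**Figure D3:**
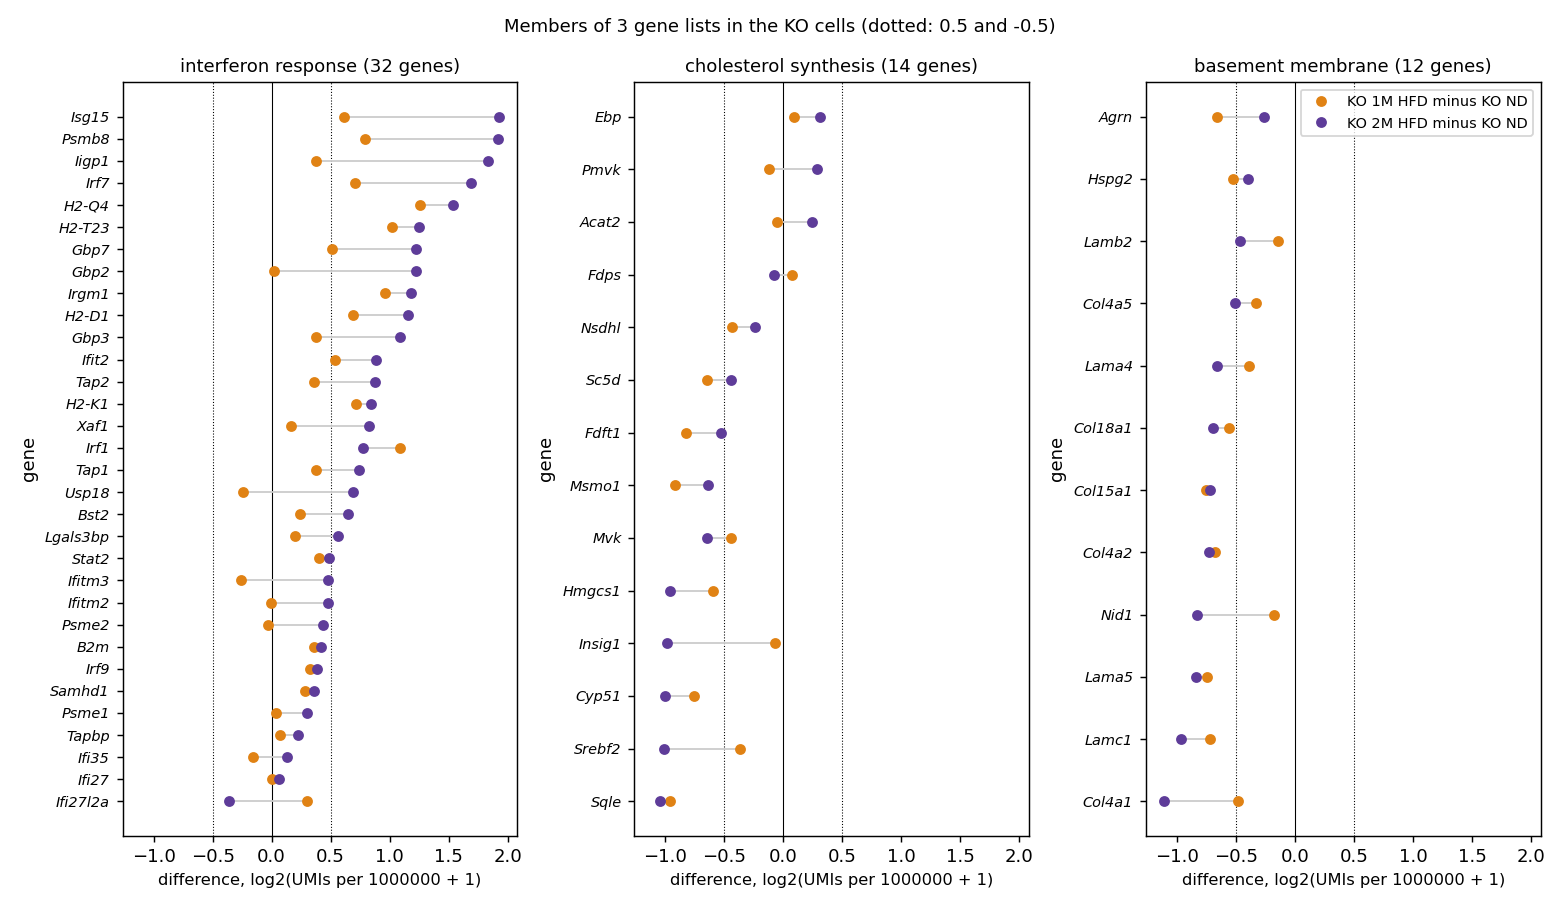
Differences from ND at 1M (orange) and 2M (purple) for 32 interferon, 14 cholesterol and 12 basement membrane genes, on the log2(UMIs per 1000000 + 1) scale. Of the interferon genes shown 26 lie above 0 at both times, of the sterol genes shown 10 lie below 0 at both, and all 12 basement membrane genes lie below 0 at both.

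Contractile genes differed little at 1M and more at 2M. Acta2 stood at 24612, 23420 and 21484 CPM, Myh11 (smooth muscle myosin) at 2606, 2337 and 1744, Cnn1 (calponin) at 2929, 2481 and 2376 and Tagln (transgelin) at 1142, 1039 and 433. All 4 were lower at both times, by 0.07 to 0.24 on the log2 scale at 1M and by 0.20 to 1.40 at 2M. Of 23 contractile genes measured, 18 were lower and 3 higher at both times, against 28.8% and 36.6% of all genes. Des (desmin), at 295, 189 and 175 CPM, alone was lower by at least 0.5 at both, against 1.08% of all genes. Without the fibroblast-marker cells the list's medians went from -0.12 and -0.20 to -0.06 and -0.17. In the Apoe cells described below the list's medians were 0.03 and -0.11. There Tagln differed by 0.40 and -1.18 at 1M and 2M, Myh11 by -0.14 and -0.35 and Acta2 by 0.19 and 0.08. Tagln overlaps Pcsk7 on the opposite strand.

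Genes of the TGF-beta pathway did not share a direction, as 12 of 22 measured were higher and 7 lower at both times, against 36.6% higher and 28.8% lower over all genes. By at least 0.5 at both, 4 were higher (18.2%, against 1.62% of all genes) and 0 lower. Without the fibroblast-marker cells 2 were higher and 1 lower, against 1.26% and 1.13% of all genes. Of the members named in this paragraph, Junb alone was among the 4 higher with all cells. The list also held 1 gene past 1 at both times, which is not named in this paragraph. The feedback inhibitors Smad7 and Skil stood at 167, 236 and 186 CPM and at 102, 162 and 129, highest at 1M, whereas Smad6 was lower (76.7, 58.9 and 46.5). Tgfb1, a ligand, stood at 55.0, 76.0 and 101 CPM, Tgfb3 at 169, 190 and 111 and Tgfb2 at 180, 159 and 152. Smad3, which carries the signal, stood at 19.5, 13.9 and 13.9. Of the known targets, Junb stood at 455, 733 and 892 CPM, while Pmepa1, a feedback inhibitor, was at 49.8, 84.3 and 60.3. Pmepa1 at 1M was at 59.1 CPM without the fibroblast-marker cells, a difference of 0.24 in place of 0.75. Junb also belongs to the early response genes that tissue digestion can induce, of which 23 of 34 measured were higher and 5 lower at both times, against 36.6% and 28.8% of all genes. The medians of these 34 were 0.27 and 0.18 at 1M and 2M, and 0.01 and 0.28 in the Apoe cells described below.

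Among the remaining lists, 2 of 8 measured Notch genes were lower by at least 0.5 at both times, against 1.08% of all genes. These were Heyl at 27.5, 16.9 and 12.4 CPM and the receptor Notch3 at 21.6, 14.9 and 13.4. The medians of the Notch list were -0.02 and -0.27 at 1M and 2M, and much the same in the Apoe cells described below (-0.01 and -0.30). Inflammatory genes included Vcam1, a leukocyte adhesion molecule, at 91.0, 146 and 571 CPM (0.29 at 1M without the fibroblast-marker cells), Relb, an NF-kB subunit, at 21.2, 32.8 and 40.2, and Socs3, a cytokine feedback inhibitor, at 67.5, 122 and 121. The chemokine Cxcl12 was lower, at 336, 163 and 238. Over the 16 measured genes of the NF-kB and acute phase list the medians were 0.29 and 0.43 at 1M and 2M. In the Apoe cells described below they were 0.03 and 0.79. The protease Ctsk (cathepsin K) stood at 8.11, 16.8 and 35.4 CPM and the protease inhibitor Cst3 at 1666, 2516 and 4336. Measured genes numbered 18 in the glycolysis list, 46 in respiratory chain, 49 in ribosomal proteins and 29 in proteasome. They numbered 19 in unfolded protein response, 18 in iron and oxidative stress and 19 in regulators of smooth muscle identity. In each of these lists 0 genes passed 0.5 at both times in either direction, against 1.62% higher and 1.08% lower over all genes. With lists this small, 0 is near that share and is not read as a result about them.

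The 24 genes differed between the times in both directions. Lum and Dcn were higher at 2M than at 1M by 3.87 and 2.98, Tnfrsf11b by 1.40, Sfrp4 by 1.02, Clec11a by 0.87, Abcg1 by 0.76 and Runx1 by 0.66. Mfap4 was lower at 2M than at 1M by 1.34, and Gm11361 moved 1.34 further down. Each of these 9 pairs of 1M and 2M levels lay outside each other's counting intervals, but with 1 library a time the spread between animals is unknown.

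The same diets were also given to Apoe-deficient mice that keep Tgfbr2 (called Apoe). The authors normalized their table separately, but its UMI counts were recovered and scaled per library in the same way. Results are given mostly as differences from their own ND library. Of the genes set beside Apoe next, all but Tlr2 (8.11 CPM in KO ND, 6.88 in Apoe ND) had the lower ND level in KO. Fbln5 stood at 62.4 CPM in KO ND and 1080 in Apoe ND, Nox4 at 16.3 and 148, Aspn at 18.5 and 41.6, Abcg1 at 7.86 and 13.5 and Dcn at 29.1 and 36.9. These level differences rest on 1 library each and were not tested. Of the 24 genes, 19 had values in all 6 libraries. Aspn was higher to a like extent in Apoe (1.28 and 1.29 at 1M and 2M, against 1.53 and 1.23 in KO). Tlr2 was also higher in Apoe (0.32 and 2.17). Fbln5 was lower in Apoe by 0.22 and 0.20, Nox4 was higher by 0.25 and 0.22, Abcg1 by 0.06 and 0.57, and Dcn by 0.38 and 0.51. A fit over these 6 libraries (limma, with 1M and 2M as 2 samples of early HFD in each genotype and 2 residual degrees of freedom) gave the test the design allows. Its error is the difference between the times, so a gene that differs between 1M and 2M is held to be noisy. In KO, 0 of 8426 genes passed an adjusted p of 0.05 (lowest 0.252), and 411 had an unadjusted p under 0.05 (4.88%). In Apoe, 0 passed and 107 had an unadjusted p under 0.05 (1.27%). The largest KO effects for their error were Nox4 with 1.52 ± 0.22 (SE), Aspn with 1.38 ± 0.20, Ltbp2 with 1.77 ± 0.26 and Fbln5 with 1.35 ± 0.20, each at an adjusted p of 0.252 (limma, Benjamini-Hochberg).

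For the difference between the genotypes, KO minus Apoe, 0 genes passed and 125 had an unadjusted p under 0.05 (1.48%), with a lowest adjusted p of 0.9998. The lowest p-values belonged to Fbln5 (1.56 ± 0.29), Ltbp2 (2.02 ± 0.37), Ccn5 (1.61 ± 0.37), Lima1 (1.12 ± 0.26), Phactr1 (1.11 ± 0.26), Col15a1 (-1.08 ± 0.26), Nox4 (1.29 ± 0.31), Wrb (1.10 ± 0.27), Abra (-1.16 ± 0.28) and Clec11a (2.10 ± 0.56). Col15a1 was lower in KO (-0.75 and -0.72) and higher in Apoe (0.41 and 0.28). For Aspn the difference was 0.10 ± 0.28 and for Tlr2 0.07 ± 0.82. None of these differences is thus shown to be particular to the KO cells by this test. The result depends on single libraries: without KO 1M 9 genes passed in KO (Dcn, Sfrp4, Crispld1, Pcolce, Pth1r, Isg15, Col27a1, Cd24a and Tnfrsf11b), without KO 2M 1 gene (Dcn), and without either Apoe 1M or Apoe 2M 14 genes. Those 14 were Ltbp2, Clec11a, Dcn, Fbln5, Aspn, Smoc2, Abcg1, Ccn5, Tlr2, Nox4, H2-Q4, Tnfrsf11b, Olfr1033 and Gm11361. For the difference between genotypes, 1 gene passed without KO 1M (Dcn) and 3 without Apoe 2M (Ltbp2, Smoc2 and Gm11361). In Apoe, 1 gene passed without Apoe 1M (Tlr2). With a library left out, 1 residual degree of freedom remains and a time with a single library is assumed to vary like the others.

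**Figure D4:**
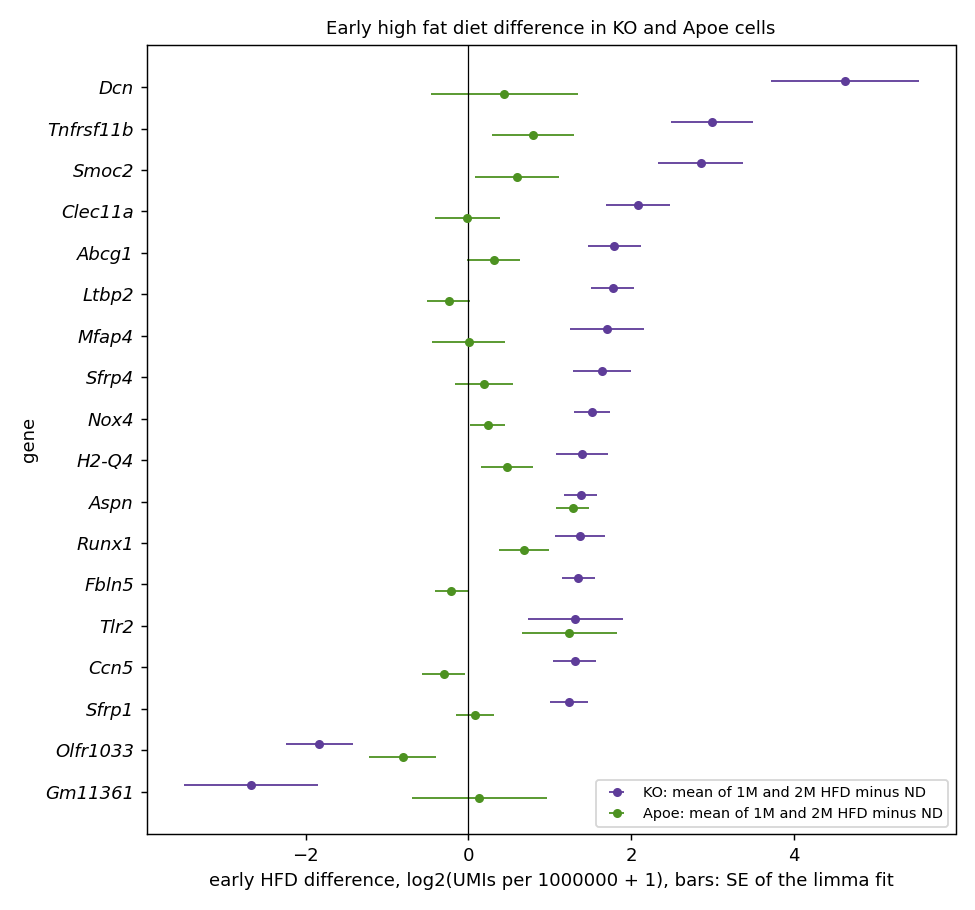
Early HFD difference (mean of 1M and 2M minus ND) in KO (purple) and Apoe (green) for 18 of the 19 genes with values in all 6 libraries, on the log2(UMIs per 1000000 + 1) scale. Bars are the SE of the limma fit. Aspn and Tlr2 lie at like values in both genotypes, and Fbln5, Ltbp2, Ccn5 and Clec11a lie above 0 in KO and at or below 0 in Apoe.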

How the data were processed

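The authors deposited 1 log2 value per gene and cell, scaled with TMM factors as the file names say. Subread 1.6.0 with featureCounts, STAR and UMI-tools, and the build GRCm38, are named in the submitters' processing notes, but no annotation release is. Put back to the linear scale, with 1 taken off, the values of each cell were whole multiples of its lowest value (100% of entries, tolerance 0.01), which gave UMI counts. These were summed per library, scaled to 1000000, and compared as log2(CPM + 1) with no test between single libraries. Cells were matched to libraries by the endings of their names, and no cell was removed. Symbols and coordinates are from GENCODE vM21, in which 11214 of the 11221 gene identifiers were found. Sequences are from RefSeq.

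The design planned limma on 6 libraries (limma 3.58.1, R 4.3.3, Benjamini-Hochberg over 8426 genes), which was tested on simulated data. A few counted genes are not reported here by name. Shares of cells with a UMI were planned and are not reported. Genes were named as the first 20 higher and 20 lower at both times by the smaller difference (no predicted genes), the genes past 1 at both times, up to 4 per list past 1, 4 contractile genes, the 10 largest differences between 1M and 2M, and the 10 lowest p-values for KO minus Apoe. The members, the 30 gene lists, the markers and the tests were chosen with earlier results of these data known, and the removal of fibroblast-marker cells was chosen after seeing the data. Alternatives were the pseudocount, the scaling, a filter, the weight of cells, thinning to 3000 UMIs per cell, the threshold, leaving out cells with other markers, and leaving out libraries.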

Additional observations from a re-analysis of the deposited data

Results flagged for a closer look

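Fbln5 moved in opposite directions in the 2 genotypes. Its difference from ND was 1.20 at 1M and 1.51 at 2M in KO, and -0.22 at 1M and -0.20 at 2M in Apoe. Every early HFD library of KO thus lay above its ND and every one of Apoe below. The levels at ND, 1M and 2M were 62.4, 144 and 180 CPM in KO and 1080, 928 and 938 in Apoe. Fbln5 thus stayed lower in KO than in Apoe at each time, also on the diet. By limma the difference between genotypes was 1.56 ± 0.29 (SE), with an adjusted p of 0.9998 (Benjamini-Hochberg). Without the fibroblast-marker cells the KO difference was -0.16 at 1M and 1.45 at 2M. No cell could be set aside in KO ND, and none was in Apoe, whose differences are those of all cells. The genotypes were thus not compared on the same footing once these cells were left out.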

How the results depend on the processing

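With all cells, 39 genes differed by at least 1 at 1M, 193 at 2M, 21 were higher at both and 3 lower at both. With 10 in place of 1 added to the CPM these became 16 at 1M, 93 at 2M and 7 higher at both. With median of ratios scaling 5 were lower at both. With cells thinned to 3000 UMIs 63 differed at 1M, and 15 of the 21 higher genes remained. At a threshold of 0.5 the counts were 473, 1122, 143 and 95, and at 1.5 they were 13, 61 and 6 (higher at both). Without the fibroblast-marker cells 7 genes were higher and 7 lower at both times, and without those and the other-type cells 6 and 7. At 1M the differences changed sign to -0.91 for Lum, -1.02 for Ccn5, -0.16 for Fbln5 and -0.21 for Sfrp4 without the fibroblast-marker cells, and to -0.91, -1.03, -0.15 and -0.18 without both kinds. Tlr2 went to -0.0085 without the other-type cells alone and to -0.24 without both kinds. No other gene past 1 among those named changed sign under the alternatives run. Leaving out 1 library of the fit gave 1 to 14 genes past the threshold in KO, 0 to 1 in Apoe and 0 to 3 for KO minus Apoe, against 0 with all 6, and 0 with another pseudocount, scaling, filter or the mean of the deposited log2 values. No paired analysis was possible because each group had 1 library and the labels give no replicate numbers. Both the single library per group and the depth per cell limit the comparisons of diets.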
